A study of Homo sapiens with 6 samples.

Results

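The data describe what differed in HepG2 cells after 24 h with TGF-beta, in the cells that had received a control siRNA. HepG2 cells come from a liver tumour and still make plasma proteins and many liver enzymes. The array of siControl cells given TGF-beta at 3 ng/ml for 24 h was set against the array of siControl cells collected at 0 h, without TGF-beta. These are 2 of the 6 arrays of the study. The other 4 are siControl cells at 1.5 h with TGF-beta, and cells with an siRNA against HNF4A (siHNF4a) at 24, 1.5 and 0 h. All 6 come from the same line, grown in the same medium with 10% fetal bovine serum, and each combination of siRNA and time has 1 array. The difference between 24 h and 0 h therefore has no replicate check and no test was made. Since the 0 h cells were the untreated ones, TGF-beta and the hours in culture cannot be told apart. In the same way, fewer cells of a kind and less RNA per cell cannot be told apart in these whole-culture samples.

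TGF-beta binds a pair of membrane receptor kinases, which phosphorylate SMAD2 and SMAD3. These join SMAD4, enter the nucleus and act at promoters, often beside AP-1 factors. In liver and hepatoma cells the cytokine is known for slowing proliferation, for inducing matrix and cytoskeletal genes and for feeding back on its own pathway. In epithelial cells it can also lower junction genes, a programme known as epithelial-mesenchymal transition.

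Each gene was represented by 1 Affymetrix probe set, chosen as the brightest of its single-gene probe sets when averaged across all 6 arrays. Values are MAS5 signals, linear intensities that the authors had scaled, and a signal under 12.9, the median of all signals, was set to that floor before log2 was taken. Differences are log2 of the 24 h signal minus log2 of the 0 h signal, so 1 means 2-fold. "At least" marks a difference in which 1 of the 2 signals was set to the floor. Genes at 2-fold or more are called higher or lower, and 11921 genes with a mean signal above the floor were counted. Signals are not compared between genes.

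Of the 11921 genes, 371 (3.11%) were higher and 310 (2.6%) lower by 2-fold or more at 24 h. These shares of all genes are the background for the calls counted in each gene list below. At 3-fold or more 72 were higher and 34 lower, and at 4-fold or more 23 and 6. The central 95% of all differences ran from -1.01 to 1.08, with a median of -0.01. After 1.5 h in the same arm, 1.69% of the genes were past 2-fold in either direction, against 5.71% at 24 h. Dim genes were past 2-fold more often at both times. Among genes with a mean signal of the 24 h and 0 h arrays up to 50, 5.37% were higher and 4.47% lower at 24 h, and 5.14% were past 2-fold at 1.5 h. Above a signal of 500, 1.76% were higher and 0.82% lower at 24 h, and 0.156% were past 2-fold at 1.5 h.

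**Figure D1:**
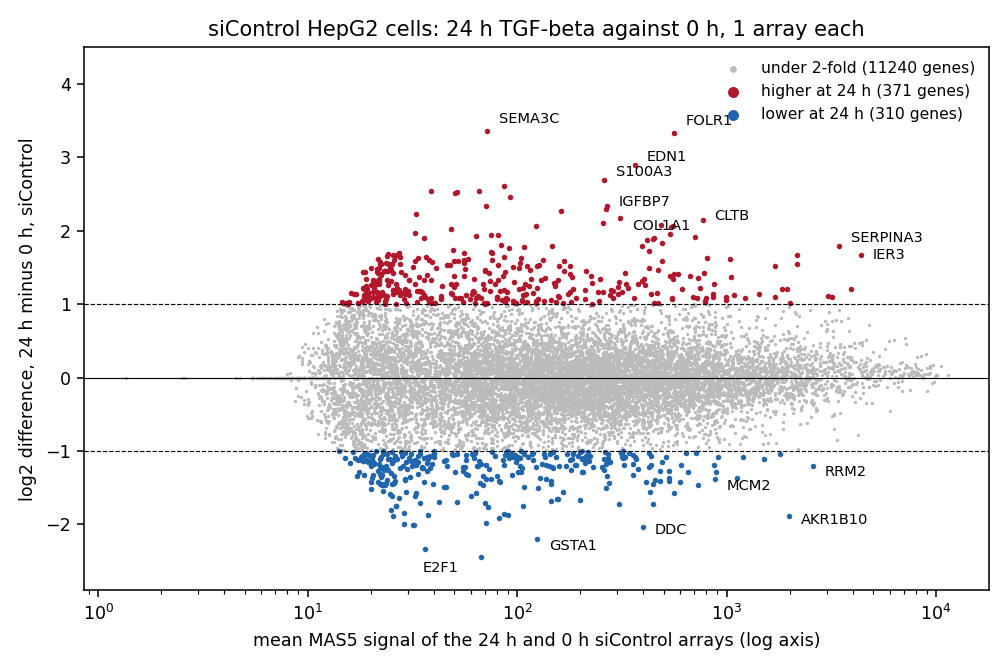
Log2 difference between the 24 h and the 0 h siControl array (vertical axis) against the mean MAS5 signal of both (log axis), 1 point per gene, with dashed lines at 2-fold. The 371 higher genes reach 3.37 and the 310 lower genes reach -2.44, and many of both are dim.

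The 0 h array, on which each difference rests, stood apart in its 18S ribosomal RNA controls. The 5′ control read 202 at 24 h and 8600 at 0 h, and the remaining 4 arrays had 69.8 to 736.5. The ratio of 3′ to 5′ signal for GAPDH was 0.949 at 24 h and 0.888 at 0 h, and that for ACTB was 1.2 and 1.28. Their part in the differences was not tested. With the 1.5 h siControl array in place of the 0 h array, 415 genes (3.48%) were higher and 359 (3.01%) lower, 6.49% in either direction, of which 224 and 182 were among those called against 0 h. Genes named here that lose their call or move by over 1.5-fold that way are given both ways.

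Hepatocyte markers were measured at both times. The 12 hepatocyte markers, all measured, had a median difference of 0.02, or -0.07 after quantile normalization, and none was past 2-fold. Albumin (ALB) read 8323 at 24 h and 8099 at 0 h, and alpha-fetoprotein (AFP), the plasma protein of fetal liver, read 7772 and 7730. FGB, a fibrinogen chain, had the lowest difference of the list (-0.46), and the protease inhibitor SERPINA1 the highest (0.32). Several of these signals lay near the top of the scale, with SERPINA1 at 9934 at 24 h where the array's maximum was 11522. The less bright carriers TTR and RBP4 both had -0.32. Of 16 markers of blood, endothelial and fibroblast or stellate cells, 14 had a probe set and 6 were above the floor on average. The leukocyte gene PTPRC, the endothelial genes CDH5 and VWF, and the fibroblast gene LUM read 1.1, 1.4, 2.7 and 3.1 at 24 h, all under the floor. Of fibroblast and stellate genes DCN (19.4 against 10.8), THY1 (15.2 against 8.3) and PDGFRB (51.4 against 27) exceeded the floor at 24 h. THY1 read 21.4 at 1.5 h, and each was under 2-fold. DES, of the same group, also exceeded the floor but read less at 24 h (18.9 against 24.6, with 10.6 at 1.5 h). Of the blood markers HBB (19.8 against 34.8, with 3.6 at 1.5 h) and CD3E (12.8 against 15.6) read less at 24 h too. The summed signal was 134 and 82.2 for the blood markers at 24 and 0 h, 140 and 55.1 for the endothelial markers, and 108 and 73.9 for fibroblast and stellate markers. CD14, a lipopolysaccharide co-receptor (100 against 26.4), and the adhesion molecule PECAM1 (127 against 47, or 0.64 on the log2 scale against 1.5 h) were past 2-fold, though other probe sets of PECAM1 gave 0.40 and 0.84. The part of such cells in the differences was not tested.

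A set of 4 promoters is shown because they belong to genes at opposite ends of the 24 h difference and hold short motifs of AP-1 or E2F factors. They come from RefSeq (GRCh38.p14) and run from 250 bases before to 50 bases after the gene's start, on the gene's strand. Capitals mark matches on either strand to TGANTCA, the AP-1 site, in the first pair, and to TTTNNCGC, the core bound by E2F factors, in the second. S100A3, a calcium-binding protein, lies on chromosome 1 (chr1:153549209-153549508, minus strand) and IL11, a cytokine that signals through gp130, on chromosome 19 (chr19:55370414-55370713, minus strand).
S100A3: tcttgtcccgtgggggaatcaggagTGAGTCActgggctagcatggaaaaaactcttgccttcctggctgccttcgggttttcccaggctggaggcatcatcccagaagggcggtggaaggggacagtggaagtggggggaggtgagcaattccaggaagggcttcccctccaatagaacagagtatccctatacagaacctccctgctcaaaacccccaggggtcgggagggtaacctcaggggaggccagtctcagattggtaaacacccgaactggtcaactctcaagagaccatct
IL11: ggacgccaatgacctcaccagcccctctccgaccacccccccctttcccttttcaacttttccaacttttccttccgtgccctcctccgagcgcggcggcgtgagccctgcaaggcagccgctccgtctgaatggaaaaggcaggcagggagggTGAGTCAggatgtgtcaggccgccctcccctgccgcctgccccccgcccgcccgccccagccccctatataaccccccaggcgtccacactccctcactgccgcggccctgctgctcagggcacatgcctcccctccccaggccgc
E2F1 (chr20:33686336-33686635, minus strand) and E2F2 (chr1:23531184-23531483, minus strand) encode transcription factors that switch on S-phase genes. E2F1 has 4 matches and E2F2 has 3, overlapping in part in both.
E2F1: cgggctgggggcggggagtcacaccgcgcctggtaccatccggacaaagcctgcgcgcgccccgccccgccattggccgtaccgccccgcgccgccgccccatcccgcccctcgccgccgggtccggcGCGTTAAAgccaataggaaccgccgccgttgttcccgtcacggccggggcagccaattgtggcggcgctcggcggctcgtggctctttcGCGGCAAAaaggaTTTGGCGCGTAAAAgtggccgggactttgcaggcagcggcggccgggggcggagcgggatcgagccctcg
E2F2: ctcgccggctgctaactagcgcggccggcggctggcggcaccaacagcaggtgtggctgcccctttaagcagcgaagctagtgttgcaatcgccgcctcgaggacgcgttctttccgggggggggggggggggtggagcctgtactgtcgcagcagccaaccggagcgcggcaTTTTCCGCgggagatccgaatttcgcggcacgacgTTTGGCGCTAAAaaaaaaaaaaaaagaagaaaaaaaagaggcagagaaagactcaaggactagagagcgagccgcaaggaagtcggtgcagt

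The AP-1 match lies 225 bases before the start of S100A3 and 96 bases before that of IL11. Of 9736 counted genes with a promoter in the table, 4.44% held this motif, as did 26 of 274 genes called higher (9.49%) and 8 of 252 called lower (3.17%). The E2F core stood in 10.3% of all these promoters, in 48 of the 252 lower genes (19%) and in 18 of the 274 higher genes (6.57%). It was in 16 of 25 promoters of the DNA replication list and 8 of 15 of the G1/S list, but in 3 of 26 of the G2/M list. In the G2/M list 19 of 26 promoters held the letters CCAAT on either strand, which stood in 37.1% of all. The Smad palindrome GTCTAGAC stood in 12 of the 9736 promoters and in none of the higher or lower genes. A match describes letters in this window and is not a binding site.

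S100A3 read 451 at 24 h, against 69.6 at 0 h, a difference of 2.69. In siHNF4a cells it read 497 at 24 h and 59.3 at 0 h, so the pair of arms lay close together at both times. IL11 read 156.5 at 24 h against 28.5 at 0 h (5.49-fold). E2F1 had the lowest difference of genes above the floor on both arrays, 20.8 at 24 h against 113 at 0 h (-2.44), and E2F2 read 34.4 against 130 (-1.92). Other probe sets of IL11, E2F1 and E2F2 gave 1.51, -0.63 and -0.71, so the size of each depends on the probe set. For 152 of the 371 higher genes 260 other probe sets lay above the floor, of which 228 (87.7%) had the same sign, with a median of 0.81. For 113 of the 310 lower genes it was 138 of 161 (85.7%), with a median of -0.65. Over all counted genes 66.6% of other probe sets had the same sign. Probe sets of a gene share the RNA and the array, so they repeat the measurement and not the experiment.

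Known targets of TGF-beta, only some of which act back on the pathway, were split at 24 h. Of 21 measured feedback and early direct targets, 5 were higher and none lower, and the median was 0.64, against -0.01 for all genes. PMEPA1, which ties down SMAD2 and SMAD3, the Smads that the receptors phosphorylate, read 75.3 at 24 h and 2.6 at 0 h, a difference of at least 2.55. CDKN2B, the CDK inhibitor p15, had 148 against 24.2 (2.61). LTBP2, named as a member of the latent TGF-beta binding protein family, had 119 against 31 (1.94, and 1.36 by another probe set). BHLHE40 and JUNB, a repressor of the helix-loop-helix class and an AP-1 subunit, were 1.83 and 1.70 higher. Against the 1.5 h array 4 of the 21 were higher and 4 lower, with a median of 0.28, and BHLHE40 was 0.54 higher. The inhibitory Smads were not past 2-fold at 24 h, with SMAD7 at -0.47 and SMAD6 at -0.12. SKIL, a co-repressor of Smads, was at the edge, at 929 against 465 (1.00).

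The time course set these genes apart. JUNB read 35.5 at 0 h, 347 at 1.5 h and 116 at 24 h, so its highest signal was at 1.5 h. The mTOR inhibitor DDIT4 had the same shape, with 180, 1003 and 656. SMAD7 read 309, 710 and 223, and the zinc finger gene KLF10 read 476, 1128 and 437, both ending near or under their 0 h signal (SMAD7 and KLF10 at 1.5 h were picked after their values were seen). EDN1, the vasoconstrictor endothelin, was higher at each later time, with 85.9, 246 and 642, so its difference from 1.5 h was 1.38. In contrast, PMEPA1 (2.6, 7.8 and 75.3) and CDKN2B (24.2, 32.1 and 148) were close to their 0 h signal or under the floor at 1.5 h. Set against 1.5 h in place of 0 h, the differences of JUNB and DDIT4 at 24 h turned to -1.58 and -0.61.

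**Figure D2:**
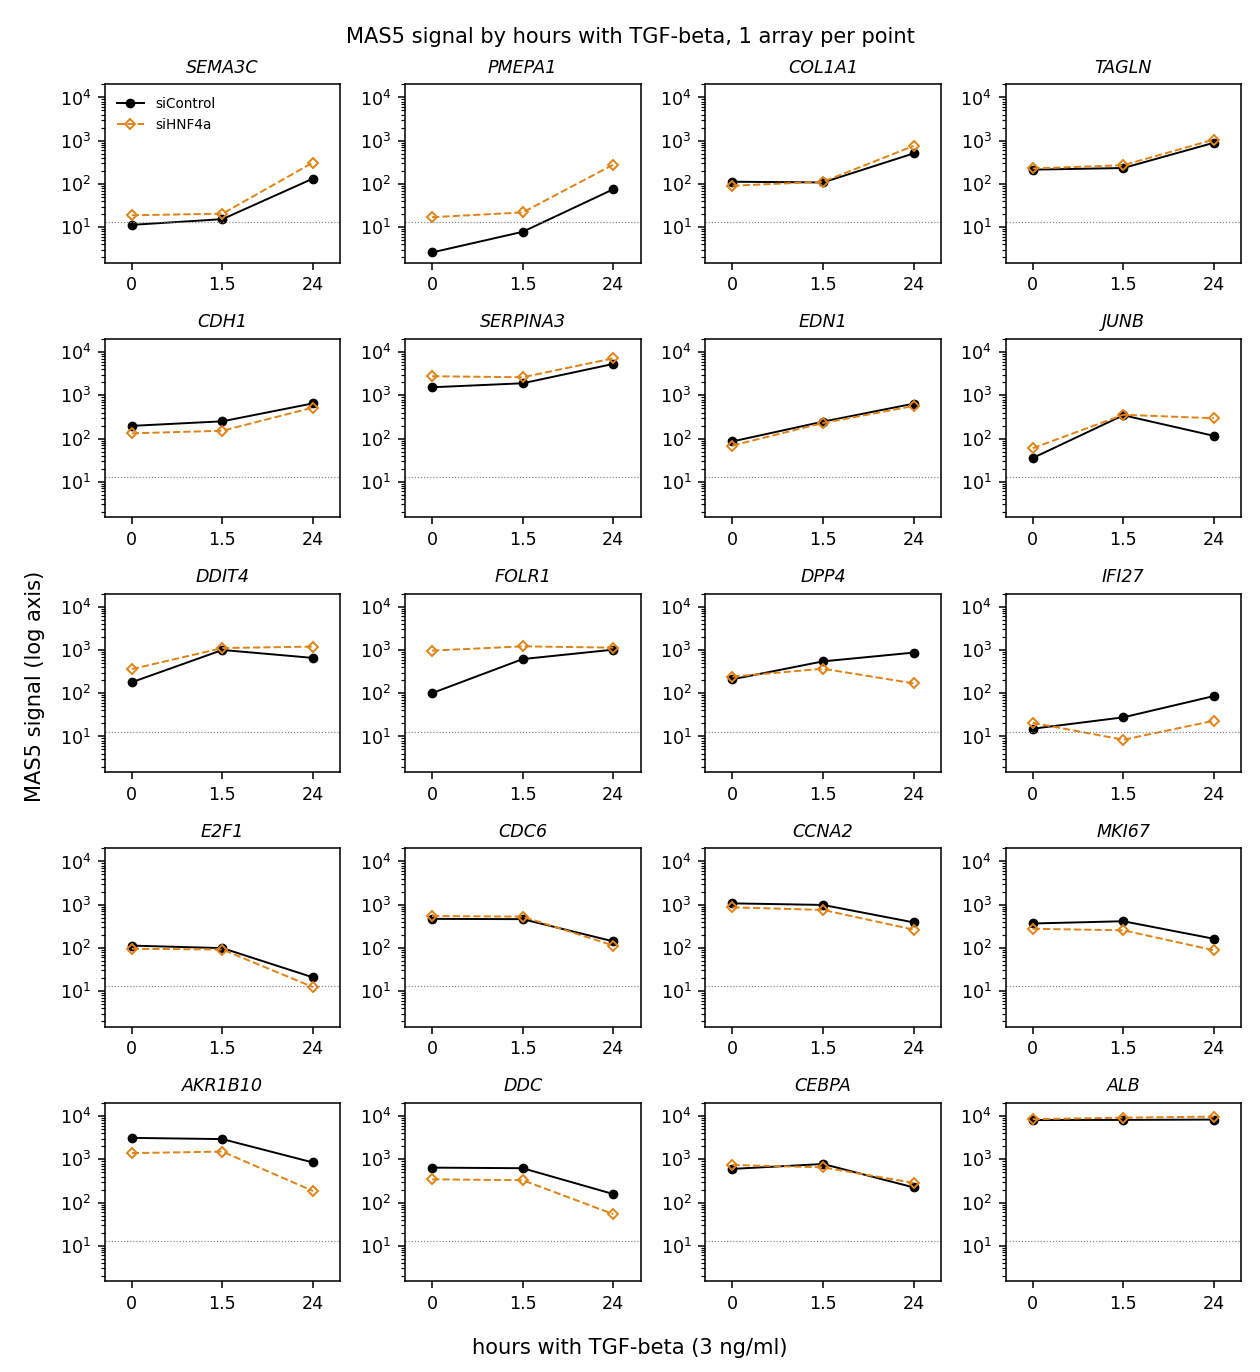
MAS5 signal (log axis) at 0, 1.5 and 24 h with TGF-beta for 20 genes, with siControl as filled circles, siHNF4a as open diamonds and the floor as a dotted line; each point is 1 array. JUNB and DDIT4 were highest at 1.5 h in siControl cells, the matrix and actin genes were higher at 24 h alone, and the cell cycle genes were lower at 24 h alone.

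Several secreted signals were higher. Of 17 measured cytokines and growth factors, 7 were higher and none lower, with a median of 0.57. SEMA3C, an axon guidance ligand, read 133 at 24 h and 11.3 at 0 h, at least 3.37 higher, or 10.3-fold, while another probe set gave 1.53. EDN1 was 2.90 higher, with other probe sets at 0.63 and 3.04. The neutrophil chemokine CXCL8 read 168 against 66 (1.34, or 2.21 against 1.5 h, and 0.73 by another probe set), and IL18, an inflammatory cytokine, read 111 against 45.8 (1.28). HBEGF, a ligand of the EGF receptor, read 124 against 55.6 (1.16), and CSF1, the macrophage growth factor, read 152 against 69.3 (1.13, or 0.34 against 1.5 h). Among 15 ligands and antagonists of the TGF-beta family 3 were higher, with a median of 0.55. FSTL3, which binds and blocks activin, had 267 against 55.5 (2.26). The activin subunit INHBE had 213 against 86.8 (1.29), and LEFTY1, an inhibitor of nodal, 61.3 against 25.8 (1.25). TGFB1 itself, at 467 against 234 (0.99), missed the 2-fold line. Against the 1.5 h array INHBE was 0.74 higher.

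Receptors and Smads differed less. Of 14 measured 1 was past 2-fold (7.14% higher, background 3.11%). This was BMPR2, the type II receptor of bone morphogenetic proteins, at 329 against 160 (1.04), and its 4 other probe sets gave 1.02 to 1.21. The type I receptor ACVR1 (0.68), SMAD3 (0.68) and TGFBR2 (0.39) were under the line, and the list's median was 0.31. SMAD3 had other probe sets between -0.66 and 0.72. Of 8 ID genes and other BMP targets none was past 2-fold, and the median was -0.15. ID1, an inhibitor of differentiation, read 6496 at 24 h and 6072 at 0 h. HAMP, the gene of the iron hormone hepcidin, had 479 against 956, which falls just short of 2-fold lower.

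Matrix genes differed by subset. Of 15 collagens and basement membrane proteins 2 were higher (13.3%, background 3.11%) and 1 lower (6.67%, background 2.6%). The median of this list was 0.21, or -0.04 against 1.5 h. COL1A1, the main chain of type I collagen, read 508 at 24 h and 112 at 0 h (2.18), though other probe sets of it gave 0 to 1.67. Fibronectin (FN1), abundant at both times, read 8902 against 7328 (0.28), and its 6 other probe sets gave 0.10 to 0.86. COL12A1, a collagen that sits on fibril surfaces, was lower by at least 1.45 on the log2 scale, at 10.1 against 35.2. It was dim, and in siHNF4a cells it read 21.4 at 24 h and 24.3 at 0 h (-0.18). Genes that process collagen stood higher in 3 of 15 cases (20%, background 3.11%), with a median of 0.39. The lysyl oxidases LOXL4 (708 against 189, 1.91) and LOXL2 (115 against 45.9, 1.33) cross-link fibres, and PLOD2 (2681 against 1326, 1.02) hydroxylates lysine. With 1.5 h as the reference COL12A1 (-0.82) and LOXL2 (0.97) were not past 2-fold, nor was COL4A2, a basement membrane chain, at 0.88 in place of 1.09 (0.58 by another probe set).

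Of 14 proteases and inhibitors 4 were higher and none lower, with a median of 0.56. TIMP1, an inhibitor of metalloproteases, read 2509 against 878 (1.51), and the membrane protease ADAM19 read 165 against 57.6 (1.51). The urokinase PLAU had 69.9 against 29.6 (1.24, or 0.61 against 1.5 h), and the protease inhibitor SERPINE2 had 2553 against 1105 (1.21). Another probe set of SERPINE2 gave -0.14. Integrins, the matrix receptors, had the highest median of the lists, 0.99 over 9 subunits, with 4 higher. ITGAV (4360 against 2032) and ITGA2 (1670 against 788) were well above the floor, while ITGA3 and ITGA5 read 32.8 and 30.5 at 24 h and were under it at 0 h. ITGA5 was 0.83 higher against 1.5 h.

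The actin cytoskeleton list had 22 of 23 differences above 0 and 5 past 2-fold, all higher, with a median of 0.62. TAGLN, an actin-binding protein of smooth muscle, read 896 at 24 h against 214 at 0 h (2.07), and its other probe sets gave 0.51 and 1.69. TGFB1I1, a focal adhesion adaptor, read 226 against 65.4 (1.79), and TAGLN2 read 740 against 245 (1.59). CNN1, calponin, was at least 1.22 higher and the myosin light chain MYL9 1.14. Against the 1.5 h array 7 were higher. Of 11 targets of YAP and SRF, factors that respond to mechanical load, CCN1 alone was past 2-fold (1131 against 420, 1.43, or 0.94 against 1.5 h). That is 9.09% of the list, where 3.11% of all genes were higher.

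Epithelial junction genes were not lower as a list. Of 19 measured, 1 was higher by 2-fold (5.26%) and none lower, near the 3.11% and 2.6% of all genes. The higher gene was CDH1, the cadherin of epithelial junctions, at 653 against 197 (1.73, and 1.02 by another probe set). Above 0 lay 12 of the 19 and below 0 lay 7, the lowest being OVOL1 at -0.86 (14.2 against 25.8, or 0.14 against 1.5 h). The median was 0.28, or -0.03 without probe sets that can match several transcripts, with KRT19 at 0.65, TJP1 at 0.76 and CLDN6 at 0.80. Of 8 measured factors and markers of a mesenchymal switch 2 were higher (25%, background 3.11%) and none lower. These were the neural cadherin CDH2, at 1334 against 644 (1.05), and S100A4, a calcium-binding protein of fibroblasts (324 against 132, 1.30). Factors that repress epithelial genes in a mesenchymal switch were not past 2-fold. ZEB1 read 316 at 24 h and 291 at 0 h, and SNAI1 was under the floor at both times, with 29.7 at 1.5 h. The filament gene VIM read 14.6 at 24 h and 5.5 at 0 h.

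**Figure D3:**
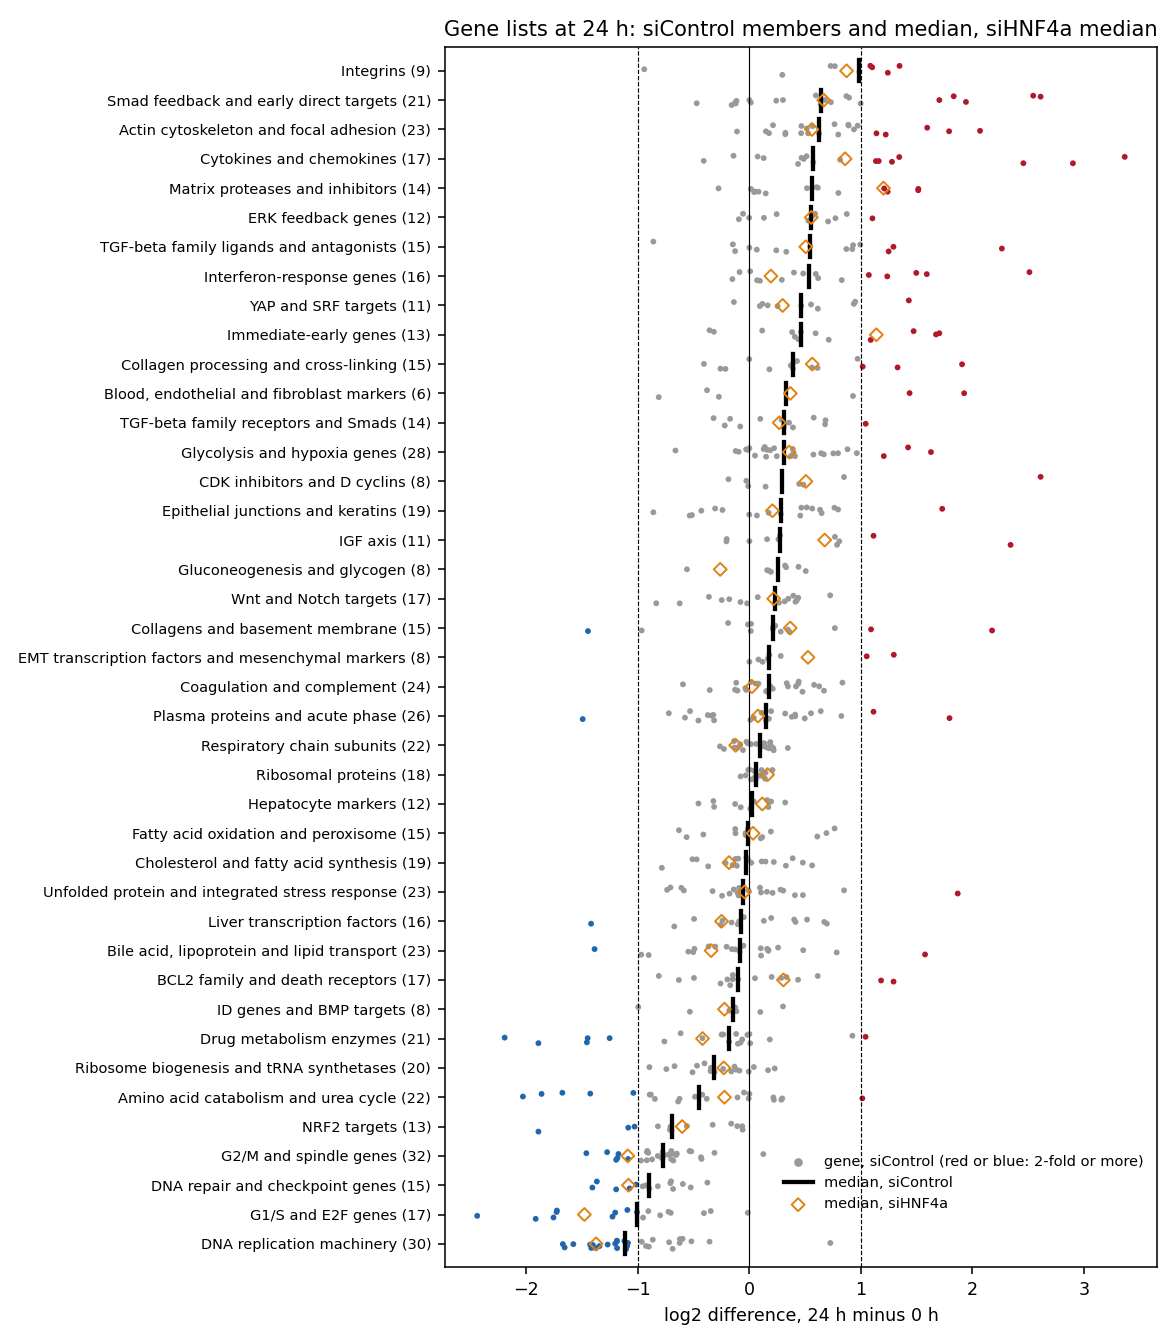
Log2 difference between 24 h and 0 h (horizontal axis) for each member of 41 gene lists in siControl cells, with the number measured in brackets; red and blue points are past 2-fold, the black bar is the siControl median and the open diamond the siHNF4a median. The DNA replication, G1/S, DNA repair and G2/M lists lie lowest, at medians of -1.11 to -0.77, and the integrins lie highest at 0.99.

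The lists with the lowest medians were those of the cell cycle. In the G1/S and E2F list all 17 differences lay below 0 and 9 were past 2-fold, with a median of -1.01 (background 2.6% lower). CDC6, which loads the replicative helicase, read 142 at 24 h against 470 at 0 h (-1.73). SKP2, the ubiquitin ligase subunit that removes p27, read 206 against 683 (-1.73), and the phosphatase CDC25A read 48.9 against 165 (-1.76). The other probe sets of CDC6, SKP2 and CDC25A lay between -1.76 and -1.66, close to these values. RRM2, the subunit of ribonucleotide reductase that supplies DNA precursors, read 1557 against 3587 (-1.20), and cyclin E2 (CCNE2) 62.8 against 147 (-1.23, or -0.96 against 1.5 h). The licensing factor CDT1 stood at the edge, at 212 against 427 (-1.01), and at -0.48 against 1.5 h, where 7 of the 17 were lower. At 1.5 h the list had a median of -0.03.

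The replication machinery had 18 of 30 members lower, 29 of 30 below 0 and a median of -1.11. MCM10, a scaffold of replication start, read 94.8 against 302 (-1.67), and CDC45, a part of the active helicase, read 74.4 against 235 (-1.66). The flap nuclease FEN1 had 281 against 840 (-1.58), ORC1 of the origin complex 44.9 against 121 (-1.43), and the helicase subunits MCM2, MCM4, MCM5, MCM6 and MCM7 had -1.38 to -1.09, with MCM7 at -1.88 against 1.5 h. Of the 3 GINS subunits lower beside GINS2 (-1.42), GINS3 had -1.40, GINS4 -1.20 and GINS1 -1.19, but against 1.5 h these were -0.75, -0.55 and -0.95. Other probe sets of GINS2 gave -0.57 and -0.30, and those of MCM10 gave -1.72 and -0.86. The clamp loader subunit RFC3 had 291 against 776 (-1.42), the polymerase subunit POLA2 45.5 against 116 (-1.35) and the ligase LIG1 54.1 against 118 (-1.12). The clamp PCNA had -0.52, and RFC5 (0.73, named after its value was seen) was the 1 member above 0. With 1.5 h as the reference 15 of the 30 were lower.

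Mitotic genes were lower by smaller amounts. In the G2/M list 31 of 32 differences lay below 0, with a median of -0.77, and 6 were past 2-fold. Cyclin A2 (CCNA2) read 389 against 1073 (-1.46), the kinase PLK1 280 against 678 (-1.28), the spindle motor KIF11 197 against 450 (-1.20), and the proliferation marker MKI67 163 against 367 (-1.17). The 3 other probe sets of MKI67 lay between -1.12 and -0.64. The mitotic kinase CDK1 had 765 against 1626 (-1.09) and KIF20A, a motor of cytokinesis, 219 against 496 (-1.18). KIF11 had -0.98 against 1.5 h, where 7 of the 32 were lower. DNA repair and checkpoint genes were lower in 5 of 15 cases, or 7 against 1.5 h, with all 15 below 0 and a median of -0.90. The nuclease EXO1 had 44.6 against 118 (-1.41). BRCA1, of homologous recombination, had 115 against 262 (-1.20, and -0.71 by another probe set), the helicase BLM 58.7 against 119 (-1.01) and the fork protein TIMELESS 125 against 264 (-1.08).

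Inhibitors of the cycle and D cyclins were mostly under 2-fold. Of 8 CDK inhibitors and D cyclins 5 lay above 0 and 3 below. CDKN2B alone was past 2-fold (12.5% higher, background 3.11%), and another probe set of CDKN2B gave 0.86. CDKN1A, the inhibitor p21, read 967 at 24 h against 691 at 0 h (0.48), and CDKN1B, the inhibitor p27, read 889 against 804 (0.14). Cyclin D1 (CCND1) read 889 and 906, and cyclin D2 (CCND2) read 98.1 and 54.5 (0.85, with other probe sets from -0.20 to 1.17). Among 17 BCL2 family members and death receptors the pro-death PMAIP1 (216 against 88.3, 1.29) and BMF (47.6 against 21, 1.18) were higher. That is 11.8% of the list, where 3.11% of all genes were higher. BMF read 53.8 at 1.5 h, so its difference from that array was -0.18. The survival gene MCL1 had 0.44, and the median of the list was -0.10.

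Immediate-early and growth factor feedback genes were higher at 24 h in part. Of 13 immediate-early genes 4 were higher, with a median of 0.46. IER3, an early response gene tied to survival, was abundant and read 6686 at 24 h, against 2096 at 0 h (1.67). EGR1 had 747 against 352 (1.09), with other probe sets at 0.48 and 0.86, and EGR3 was at least 1.47 higher, or 0.95 against 1.5 h. The ERK phosphatase DUSP6 had 1362 against 634 (1.10), with other probe sets at 1.17 and 1.20. It was the 1 gene of 12 in its list past 2-fold (8.33% higher, background 3.11%), where 4 were against 1.5 h.

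Liver metabolism was lower in selected enzymes, not throughout. Of 21 drug metabolism enzymes 5 were lower and 1 higher, with a median of -0.18. GSTA1, a glutathione transferase, read 44.7 at 24 h and 205 at 0 h (-2.20), while another probe set of it gave -0.56. The alcohol dehydrogenases ADH4 (238 against 652, -1.46) and ADH6 (224 against 534, -1.25) and the steroid sulfotransferase SULT2A1 (77.4 against 212, -1.45) had other probe sets at -1.47, -1.26 and -1.49. AKR1B10, an aldo-keto reductase and a target of the antioxidant factor NRF2, read 845 against 3139 (-1.89). Of 13 NRF2 targets all lay below 0 and 3 were past 2-fold, with a median of -0.70. Beside AKR1B10 these were OSGIN1 (-1.09) and the sulfiredoxin SRXN1 (422 against 863, -1.03). The gene higher in the drug list was CYP3A5, a cytochrome P450, at 129 against 62.7.

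Amino acid catabolism had 5 of 22 genes lower and 1 higher, with a median of -0.46. DDC, which makes dopamine and serotonin from their amino acid precursors, read 157 against 643 (-2.03, and -1.44 by another probe set). MAT1A, which makes S-adenosylmethionine in liver, read 37.1 against 135 (-1.86), and PRODH2, hydroxyproline dehydrogenase, read 68.8 against 220 (-1.68, and -1.06 by another probe set). AGXT, which clears glyoxylate (-1.43 or lower, and -2.02 or lower against 1.5 h), and ARG1 (-1.04), the liver arginase, were dim, and the other arginase, ARG2, was the higher gene at 600 against 297 (1.01). Of 16 liver transcription factors CEBPA alone was past 2-fold (6.25% lower, background 2.6%), at 224 against 601 (-1.42). The lipid transport list of 23 had 1 lower and 1 higher (4.35% each), near the 2.6% and 3.11% of all genes. In it MTTP, which loads lipid on apolipoprotein B, was lower at 75.8 against 199 (-1.39). The bile acid exporter subunits SLC51A and SLC51B went opposite ways, at 59 against 19.8 (1.58, or 0.90 against 1.5 h) and 99.3 against 195 (-0.97).

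Other lists had no call, where 5.71% of all genes were past 2-fold in either direction. For a list this short, having no call lies near that share. No gene was past 2-fold among 19 of cholesterol and fatty acid synthesis, 15 of fatty acid oxidation, 24 of coagulation and complement, 8 of gluconeogenesis and glycogen, 20 of ribosome biogenesis and tRNA charging, 22 of the respiratory chain, 18 ribosomal proteins and 17 Wnt and Notch targets. Their medians were -0.03, -0.01, 0.17, 0.26, -0.32, 0.09, 0.05 and 0.23 in that order. In the ribosome biogenesis list 17 of 20 lay below 0, the lowest at -0.90, and in the gluconeogenesis list 7 of 8 lay above 0. The Wnt and Notch median was -0.21 against 1.5 h, and the ribosomal protein median was -0.03 after quantile normalization. The members of the ribosomal protein list lay between -0.08 and 0.21, the narrowest range of the 41 lists. In the list of the unfolded protein and integrated stress responses DDIT4 alone of 23 was past 2-fold (4.35% higher, near the 3.11% of all genes).

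Of 26 plasma proteins 2 were higher (7.69%, background 3.11%) and 1 was lower (3.85%, background 2.6%). SERPINA3, an acute-phase protease inhibitor, read 5339 at 24 h against 1539 at 0 h (1.79), and IGFBP1, a carrier of insulin-like growth factors, read 4147 against 1918 (1.11). The antimicrobial peptide LEAP2 had 56.5 against 159 (-1.50). The other 23 of 26 were under 2-fold, with haptoglobin (HP) at 0.82 and the fibrinogen chain FGA at -0.72. In the IGF list IGFBP7, a secreted binding protein, read 448 against 88.4 (2.34), with another probe set at 2.19. Its median of 0.28 over 11 genes was 0.77 with the floor at the 60th percentile. Of 28 glycolysis and hypoxia genes 3 were higher, with a median of 0.31. The glucose transporter SLC2A3 had 5484 against 2378 (1.21) and the hypoxia target NDRG1 478 against 178 (1.42), while the hexokinase HK1 (51 against 16.5) was dim.

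Interferon-response genes stood higher in 5 of 16 cases, with a median of 0.54. IFI27 read 86.1 at 24 h and 15.1 at 0 h (2.51, or 1.64 against 1.5 h), the antiviral membrane protein IFITM1 251 against 83.4 (1.59), IFI6 150 against 53.2 (1.50) and IRF9, a subunit of the interferon-activated factor, 426 against 181 (1.24). At 1.5 h the list's median was already 0.41, and against that array 3 were higher, the median was 0.21, and IRF9 (0.61) and OAS1, an antiviral RNA sensor (0.45 in place of 1.07, and 0.51 by another probe set), were not past 2-fold.

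Among abundant genes outside the lists, with a mean signal above 500, clathrin light chain B (CLTB) read 1256 at 24 h against 285 at 0 h (2.14). The inositol transporter SLC5A3 had 854 against 220 (1.96, with other probe sets from 1.11 to 2.04), FILIP1L 1112 against 294 (1.92), PLAC8 3302 against 1034 (1.68) and NTAN1, an amidase of protein N-termini, 1225 against 394 (1.64). At the lower end the mitotic kinase PBK had 627 against 1614 (-1.36), and UHRF1, which keeps DNA methylation through replication, 518 against 1269 (-1.29). Of genes above the floor on both arrays, the protease KLK6 (112 against 19.2, 2.55), the focal adhesion protein TNS1 (88.4 against 15.3, 2.53) and LFNG, which glycosylates Notch (119 against 23.6, 2.33), were also among the 10 highest. Another probe set of LFNG gave 0.16, and those of TNS1 lay between 1.43 and 2.33. CHAF1B, a histone chaperone of replication (28.7 against 114, -1.99), and ZNF367 (39 against 143, -1.87) were among the 10 lowest. Several of the lowest were dim, such as SPIDR (16.1 against 59.2, -1.88), which in siHNF4a cells had 24.3 at 24 h and 25.3 at 0 h. Of those with 1 array at the floor, SPINT1, an inhibitor of serine proteases, was higher by at least 2.23 (60.4 against 5.3), or 1.43 against 1.5 h, while another probe set of it gave -0.03. ANHX was lower by at least 2.33 on the log2 scale (7.8 against 65), but it was at the floor at 1.5 h and in siHNF4a cells at 24 h and 0 h.

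FOLR1, a folate receptor, had the highest difference of genes above the floor on both arrays, at 1019 against 101 (10.1-fold, 3.34). It read 617 at 1.5 h, so against that array it was 0.72 higher, and another probe set gave 0.65. In siHNF4a cells FOLR1 read 1135 at 24 h, 1215 at 1.5 h and 969 at 0 h. The siControl 0 h signal was thus the lowest of the 6 arrays. DPP4, a membrane peptidase, read 872 at 24 h against 210 at 0 h (2.05). It read 546 at 1.5 h, so against that array it was 0.67 higher, and its other probe sets gave 0.16 and 0.39.

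The siHNF4a arm gives a second pair of arrays at the same times, with no array shared, in cells that differ in the siRNA. Over the 11921 genes its 24 h differences had a Pearson r of 0.59 and a Spearman rho of 0.55 with those of siControl cells, and 0.77 and 0.71 over 7159 genes whose mean signal on the 24 h and 0 h siControl arrays was above 100. Genes are not independent replicates, and the arms share cell line and platform. Over all counted genes 45.4% lay above 0 and 53.5% below 0 in siHNF4a cells. Of the 371 genes higher in siControl cells, 321 (86.5%) lay above 0 in siHNF4a cells and 199 (53.6%) were past 2-fold there, where 4.5% of all genes were higher. Of the 310 lower genes, 265 (85.5%) lay below 0 and 144 (46.5%) were past 2-fold, where 4.61% of all were lower and 9.12% past 2-fold in either direction. Above a signal of 100, 141 of 142 higher and 119 of 122 lower genes had the same sign.

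**Figure D4:**
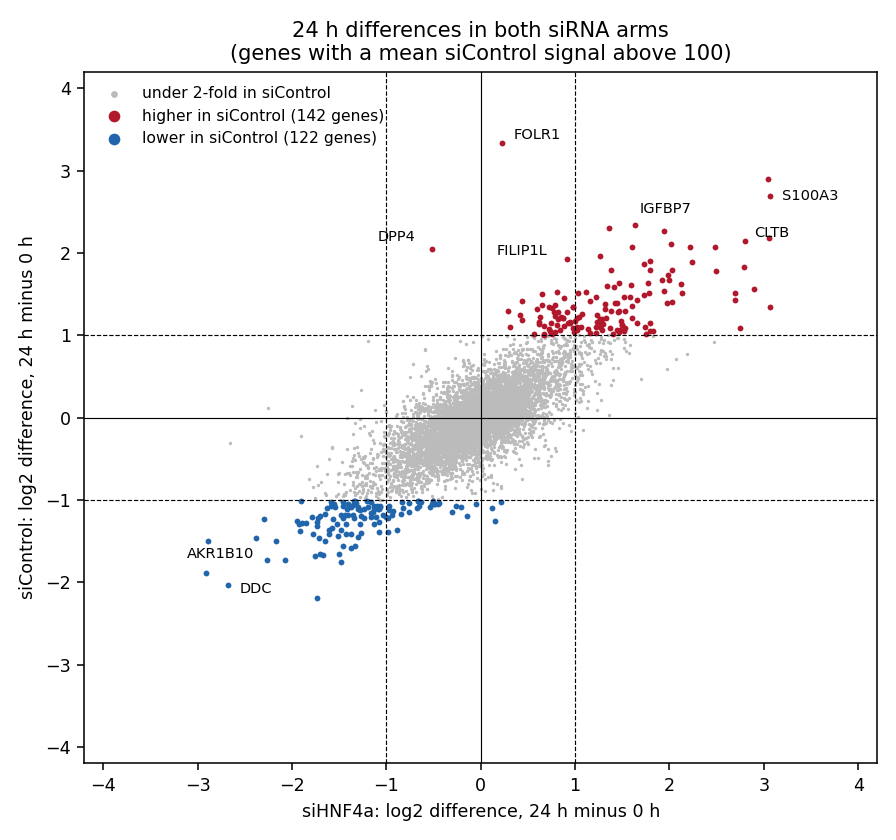
Log2 difference at 24 h in siControl cells (vertical axis) against that in siHNF4a cells (horizontal axis) for 7159 genes with a mean siControl signal above 100, with dashed lines at 2-fold. Of 142 genes higher in siControl cells 141 lie right of 0, DPP4 being the exception, and of 122 lower genes 119 lie left of 0.

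Sizes in the arms are given side by side, with no test of their difference. The medians of the 371 higher genes were 1.26 in siControl and 1.06 in siHNF4a cells, and those of the 310 lower genes -1.19 and -0.93. These genes were chosen on the siControl values. Cell cycle lists had medians of -1.01 and -1.48 (G1/S), -1.11 and -1.38 (replication) and -0.77 and -1.09 (G2/M) in siControl and siHNF4a cells. Immediate-early genes had 0.46 and 1.14, proteases and inhibitors 0.56 and 1.20, and interferon-response genes 0.54 and 0.19. IFI27 was 2.51 higher in siControl and 0.16 in siHNF4a cells, where it read 23.1 at 24 h and 20.7 at 0 h. IL11 was 2.46 and 3.75 higher, and CXCL8 1.34 and 3.07.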

How the data were processed

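Total RNA of HepG2 cells was hybridised to 6 Affymetrix arrays. The deposited values are linear intensities, MAS5 signals. Per the submitters' processing notes, the software was GCOS and MAS5, version 5.0. Each array's trimmed mean (2% cut from both tails) equalled 100, and no further scaling was applied. Array number limits the precision, and detection calls were not used here. Of 54675 probe sets 41097 had 1 gene symbol in the platform annotation, 1801 several and 11777 none. Of the first, 41043 matched a RefSeq gene table by Entrez identifier. Of 19775 genes, 11921 had a mean signal above the floor, 12.9. Some listed genes and HNF4A itself were not analysed here, which leaves the siRNA labels unchecked.

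Groups came from the sample titles. No test was made with 1 array a side, and genes past 2-fold were counted. Named genes were the 10 highest and lowest above the floor on both arrays, the 10 highest and lowest with a mean signal above 500, 5 or fewer each way where 1 array was floored, and the 5 most different members per list. Other list members were picked with their values in view. The 41 lists and the comparison were chosen with earlier results of these data known. Promoters printed were the 2 with the largest differences for each of 2 motifs. The counting was tested on simulated data. Python 3.11.15, numpy 2.4.6, pandas 2.3.3, scipy 1.17.1 and matplotlib 3.10.9 were used.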

Additional observations from a re-analysis of the deposited data

Results flagged for a closer look

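DPP4 was 2.05 higher at 24 h in siControl cells, or 0.67 against 1.5 h, and its other probe sets gave 0.16 and 0.39. In siHNF4a cells it lay at -0.52 (170 at 24 h, 243 at 0 h), and this opposite direction was not tested. SOX6 had -2.01 or lower in siControl cells (12.1 at 24 h, 52.1 at 0 h) and 0.68 in siHNF4a cells, also not tested. UTS2R likewise had -2.01 or lower (12 at 24 h, 51.9 at 0 h) and 1.45, again without a test, and both genes were dim. Among 3993 probe sets above the floor with no single gene symbol, which entered no comparison, 92 were 2-fold or more higher at 24 h and 118 lower, 5.26% in all.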

How the results depend on the processing

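The 371 higher and 310 lower genes became 587 and 513 when the 40th percentile of all signals was the floor, and 129 and 110 when it was the 75th. A pseudocount in place of the floor gave 241 and 188, and averaging all probe sets of a gene gave 228 and 185. Quantile normalization, median scaling, the 60th percentile as floor, dropping _s_at and _x_at probe sets, keeping dim genes, and the 1.5 h array or the mean of 0 and 1.5 h as the reference gave 253 to 415 higher and 214 to 359 lower. A higher floor leaves fewer genes counted, 7752 at the 75th percentile. Among named genes past 2-fold JUNB (-1.58), DDIT4 (-0.61) and BMF (-0.18) changed sign against the 1.5 h array. Of 121 named genes past 2-fold, 101 were so against 1.5 h, 114 against the mean of both and 96 of 115 measured with the mean of probe sets. No list median beyond 0.5 or -0.5 changed sign in any of these alternatives. No paired analysis was possible because the siControl comparison has 1 array a side and the labels give no replicate numbers.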
